A study of Arabidopsis thaliana with 75 samples.

Results

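Root hair genes are defined here as genes with more transcript in lines whose whole epidermis takes the hair fate than in a hairless line. The subset described here was chosen for lying less than 2-fold below wild type in arrays of rhd6, a mutant of the hair regulator RHD6. In a second set of arrays of this mutant some of its genes lay more than 2-fold below wild type. The subset was taken from 21440 genes measured in Arabidopsis root epidermis. A gene had to lie at least 1 log2 unit (2-fold) above cpc try in each of wer myb23, gl3 egl3 and ttg at both array facilities, which makes 6 differences of group means, and its mean in rhd6 minus its mean in wild type had to be above -1. Of the 148 genes that met the 6 differences, 28 passed the rhd6 limit, 116 lay at or below it, and 4 more that met both limits were left out by name. The 28 are called retained hair genes below, and the 116 RHD6-dependent hair genes. AT5G15948 and AT5G15950 had the same value on every array, so the 28 genes were counted as 27.

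Each of 25 groups was measured on 3 ATH1 arrays, 75 in all, from cells sorted for the WER::GFP reporter, which marks developing epidermis and lateral root cap and is stronger in non-hair cells. Root tips of about 2 mm from 5-day seedlings on MS medium with 1% sucrose were pooled for each array, and every line carried WER::GFP crossed in from 1 transgene. Michigan measured 21 groups and Duke measured 4. The hairy lines were wer-1 myb23-1, gl3-1 egl3-1 and ttg1-13, each set against the hairless cpc-1 try-82 at both sites. The rhd6-1 line was measured with no transfer described (rhd6, called untransferred below). It was also measured as seedlings moved for the last 2 days to MS medium. This medium held the auxin IAA (rhd6 + IAA), the ethylene precursor ACC (rhd6 + ACC) or no hormone (rhd6 + MS). The remaining Michigan lines were gl2-1, which lacks the regulator that represses hair genes in non-hair cells, the 11 single mutants rhd2-1, myc1-1, lrx1-4, ire1-2, csld3-1, cow1-3, cobl9-1, bhlh66-1, mrh1-1, mrh2-1 and mrh3-3, and Columbia wild type. These 11 lines, in which RHD6 is intact, are called downstream lines, although MYC1 belongs to the patterning step.

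As background, the fate of a root epidermal cell is set by a complex of the MYB proteins WER and MYB23, the bHLH proteins GL3 and EGL3, and TTG1. Where the complex is active, GL2 is made and hair genes are repressed. CPC and TRY oppose the complex in hair cells, so cpc try forms no hairs and loss of the complex gives hairs on nearly every cell. RHD6, a bHLH factor, acts after this choice and starts hair formation by switching on genes of tip growth and the cell wall. Auxin and ethylene are known to restore hairs to rhd6 roots.

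The genes were chosen by the measured means of the rhd6, wild type, hairy and cpc try arrays, 30 in all, so the values of these arrays are a description and were not tested. Over the 27 genes the smallest of the 6 differences from cpc try had a median of 1.53, and the largest a median of 3.48. The median of rhd6 minus wild type was -0.35, against -2.75 over the 116 RHD6-dependent genes. It ran from -0.90 to 0.70, with 6 of 27 genes above 0. Just inside the limit were AT3G59340 at -0.90, AT5G05400 at -0.84 and AT1G16260 at -0.82. Just outside lay AT2G04680 at -1.12, CDPK2 at -1.16 and AT2G01540 at -1.17. The highest values belonged to AT4G15390 and AT4G22640, both at 0.70, and AT5G15950 at 0.61.

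Facts of the whole data set that touch these genes are few. RHD6 transcript itself lay between 4.12 and 5.72 in rhd6 + MS and between 5.45 and 6.19 in rhd6, against 9.41 to 9.69 in wild type. The median level of 10 hair differentiation markers averaged 6.57 in rhd6 + MS, 7.39 in rhd6 and 9.57 in csld3, against 10.75 in wild type. All 10 are among the RHD6-dependent genes, so their lower level in rhd6 followed from the rule. They include RHD6, LRX1, COBL9 and COW1, which are themselves mutated in the rhd6, lrx1, cobl9 and cow1 lines. In the hormone contrasts and in rhd6 + MS against the downstream lines, no marker of non-hair cells (5 genes), lateral root cap (3), cortex and endodermis (5) or stele (6) was called. Among the downstream lines csld3 and mrh3 stood apart over all genes, with 719 and 583 genes different from the mean of the other downstream lines, while each of the other 9 lines had at most 9. With sorted cells pooled, fewer hair cells and less RNA per cell cannot be told apart.

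**Figure D1:**
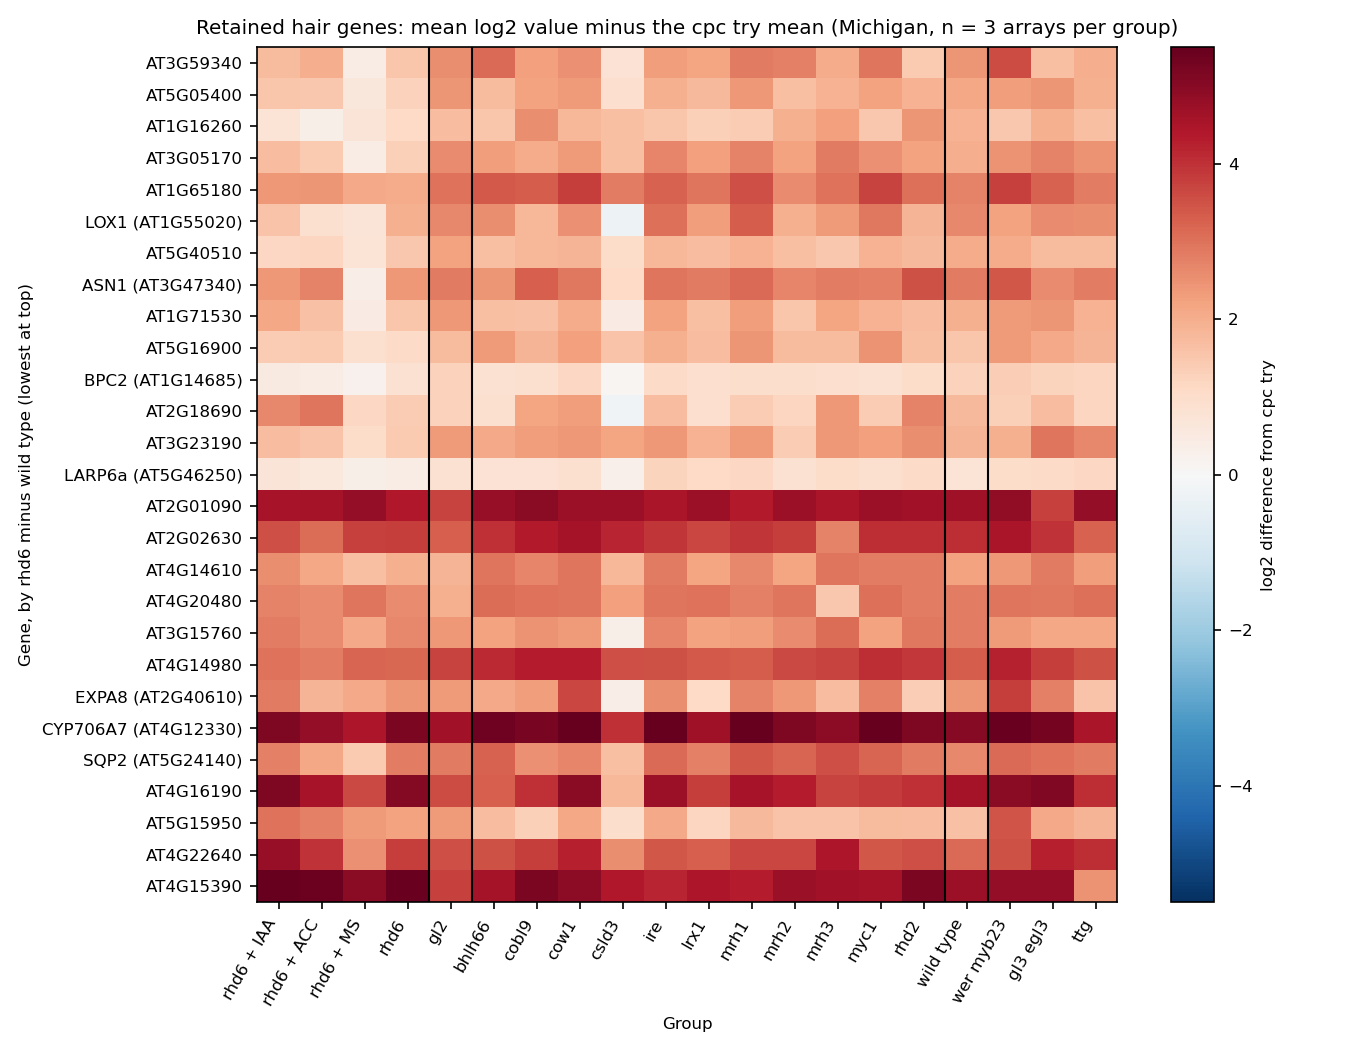
Colour gives each gene's mean log2 value in a Michigan group minus its mean in cpc try, with the 27 genes in rows (lowest rhd6 minus wild type at the top) and groups in columns, with black lines between kinds of line. Most cells are positive, the rhd6 + MS column is paler than the rhd6 column for many genes in the upper rows, and csld3 has the palest cells of the downstream lines.

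The rhd6 + MS arrays, which the rule did not use, gave lower values than the rhd6 arrays that chose the genes. As a description, rhd6 + MS minus wild type had a median of -0.65 over the 27 genes, and 10 of them lay more than 2-fold below wild type, as did 4.08% of all genes. The same difference had a median of -3.40 over the RHD6-dependent genes, with 115 of 116 more than 2-fold below. From rhd6 + MS minus rhd6 the median was -0.45 for the retained genes, -0.64 for the RHD6-dependent genes and 0.01 over all genes. The retained set was therefore partly lower in a second set of arrays of the same mutant, and its name holds for the arrays of the rule. Both references, rhd6 and wild type, entered the rule. Genes kept for a high rhd6 mean relative to wild type can read lower in fresh arrays by that choice alone, which was not tested. Some markers of other cells differed between the same arrays. The summed level of the 3 lateral root cap markers (log2 of the sum) lay at 10.53 to 11.39 in rhd6 + MS, against 11.95 to 12.55 in rhd6, with all 3 means lower in rhd6 + MS. The sum of the 5 non-hair markers lay at 10.91 to 11.18 in rhd6 + MS, against 10.41 to 10.97 in rhd6, with overlap. Means of GL2, TTG2 and TRY were higher in rhd6 + MS, and those of MYB30 and ETC1 were lower. The cortex and endodermis sum (7.57 to 8.08 against 7.64 to 8.22 in rhd6) overlapped as well. So did the stele sum (9.53 to 9.92 against 9.71 to 9.93 in rhd6). The part of these markers in the result was not tested. By their labels 2 rhd6 arrays belong to array series S and 1 to series x, while all 3 rhd6 + MS arrays belong to the numbered series. Wild type has 1 array of each series. The transfer between plates, which is described for rhd6 + MS and not for rhd6, cannot be told apart from the array series.

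To ask which of the genes need RHD6 in arrays free of the rule, rhd6 + MS was compared with the mean of the 11 downstream lines. A gene was called at a 2-fold difference and a false discovery rate (FDR, the p-value adjusted over all genes by Benjamini-Hochberg in limma's moderated test) of 5%. Of the 27 genes 11 were lower in rhd6 + MS and 0 were higher, where 3.43% of all genes were called lower and 4% higher. All 116 RHD6-dependent genes were lower. The median difference was -0.95 for the retained genes, -3.20 for the RHD6-dependent genes and 0.03 for all genes. No transfer between plates is described for the downstream seedlings, so that the transfer and the mutation cannot be told apart here. The lateral root cap sum of 10.53 to 11.39 in rhd6 + MS lay within the 10.37 to 12.10 of the downstream arrays. The hair marker sum of 9.76 to 11.24 lay below their 11.40 to 14.68, and these markers are all RHD6-dependent genes. Of the 11 genes, 8 were among the 10 that lay more than 2-fold below wild type in rhd6 + MS. Both counts use the same rhd6 + MS arrays, and wild type entered the rule, so this overlap is no separate result.

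**Figure D2:**
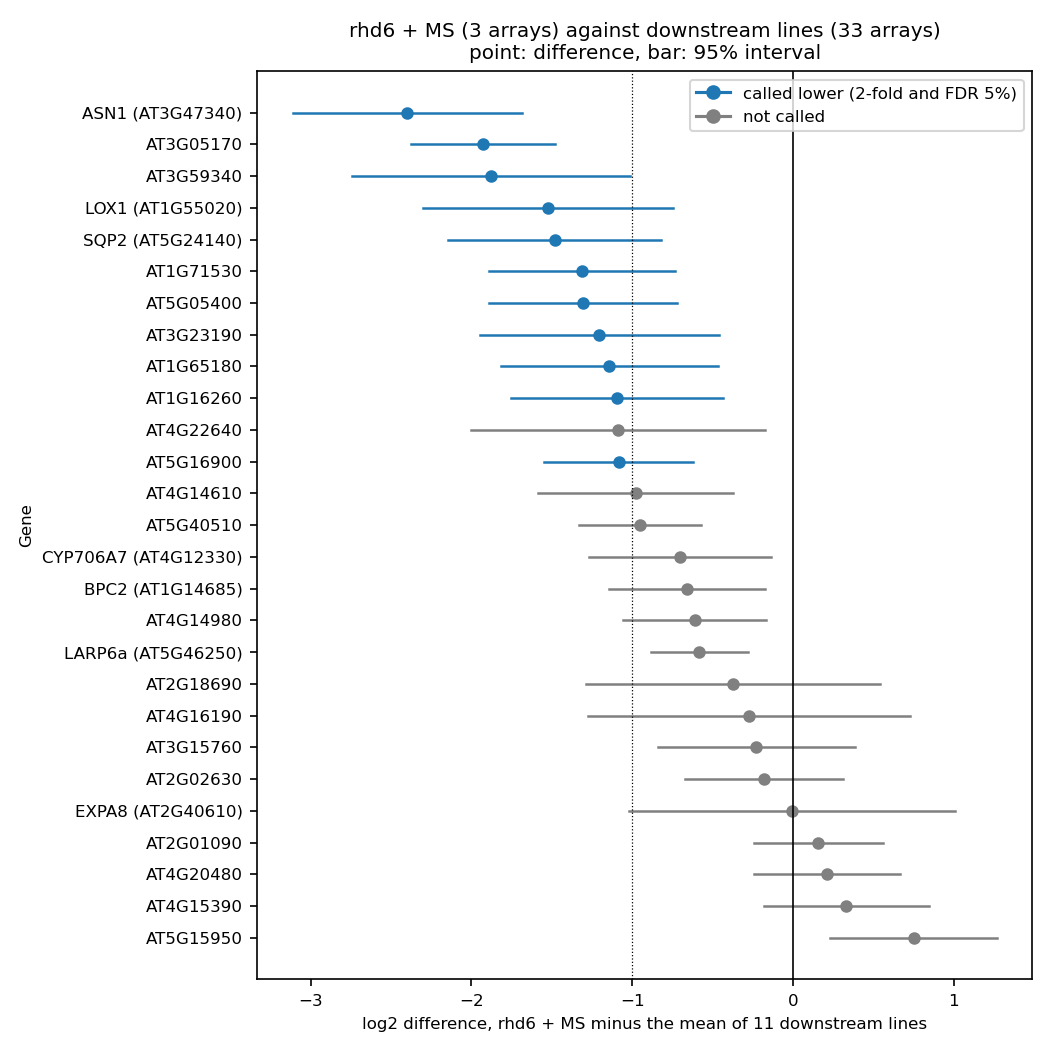
Points give rhd6 + MS minus the mean of the downstream lines on the log2 scale, bars the 95% interval, and rows the 27 genes. The 11 called genes lie between -2.40 and -1.08, and the uncalled genes reach 0.75.

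Among the enzymes, ASN1 had the widest gap. It encodes a glutamine-dependent asparagine synthetase, known as a gene that is induced in the dark. Its log2 values were 7.32, 6.88 and 7.90 in rhd6 + MS, against a lowest of 7.72, a median of 9.84 and a highest of 10.93 over the 33 downstream arrays. Without csld3 the lowest downstream array was at 8.68, so the rhd6 + MS arrays lay below all arrays of the other 10 lines. The difference was -2.40 (SE 0.35, adjusted p = 2.42e-06). Of the other asparagine synthetases, 1 of 2 was higher in rhd6 + MS and none was lower.

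AT3G05170, of the phosphoglycerate mutase family, was the only called gene whose groups did not overlap. It was at 8.30, 8.78 and 8.36 in rhd6 + MS, and the downstream arrays ran from 9.53 over a median of 10.54 to 11.19. The difference of -1.93 had an SE of 0.22 and an adjusted p of 7.49e-09. In cpc try its values were 7.87, 8.30 and 8.01, close to those of rhd6 + MS, whereas untransferred rhd6 gave 8.84, 9.51 and 9.72.

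LOX1 encodes a lipoxygenase, an enzyme that oxidizes polyunsaturated fatty acids. Values were 6.58, 6.59 and 6.95 in rhd6 + MS, against 4.93, 8.68 and 9.86 as the lowest, median and highest downstream array, and the low end came from csld3. It was lower by -1.52 (SE 0.39, adjusted p = 0.00414). Of the other 5 lipoxygenases 1 was higher in rhd6 + MS and none was lower. SQP2, a squalene monooxygenase-like enzyme, had 8.98, 9.34 and 7.89 in rhd6 + MS, and the downstream arrays lay between 8.58 and 11.37 with a median of 10.28. Its groups overlapped, and the difference was -1.48 (SE 0.33, adjusted p = 0.0012). It was the one gene called among 6 squalene epoxidases.

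All 3 protein kinases of the set were lower. AT1G71530, a protein kinase, was at 6.99, 7.15 and 6.50 in rhd6 + MS, with downstream arrays from 6.0 over 8.28 to 9.21 (difference -1.31, SE 0.29). AT5G16900, a leucine-rich repeat protein kinase, had nearly equal values of 8.09, 8.12 and 8.08 in rhd6 + MS, and its downstream arrays ran from 7.97 over 9.20 to 10.10 (difference -1.08, SE 0.23). AT1G16260, of the protein kinase family, was dim, at 5.00, 4.66 and 4.42, against 3.67, 5.72 and 6.84 downstream (difference -1.09, SE 0.33). In each of the 3 the rhd6 + MS arrays lay below the downstream median while the ranges overlapped. AT1G16260 was the only one of 11 measured wall-associated and WAK-like kinases that was called.

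Of the remaining called genes, AT3G59340, for which the sources used here give no function, read 4.16, 4.53 and 4.10 in rhd6 + MS, against 4.39, 6.38 and 7.83 as the lowest, median and highest downstream array (difference -1.88, SE 0.43, adjusted p = 0.00164). The lowest downstream arrays of this gene were those of csld3, and without them the lowest was 4.94, above all rhd6 + MS arrays. AT5G05400, a putative disease resistance protein of the CC-NBS-LRR class, was at 5.49, 5.74 and 5.27, against 5.24, 6.83 and 8.26 (difference -1.30, SE 0.29).

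AT3G23190, related to lesion-inducing proteins, was at 9.40, 9.48 and 8.53 in rhd6 + MS, against 7.80, 10.37 and 11.08 downstream (difference -1.20, SE 0.37). AT1G65180, a DC1 domain protein, read 6.95, 6.28 and 6.27 in rhd6 + MS, against 5.77, 7.66 and 9.01 downstream (difference -1.14, SE 0.33). Both overlapped with the downstream arrays. Without replicate 3 of rhd6 + MS the count fell to 7, with AT1G16260, AT1G65180, AT3G23190 and SQP2 no longer called.

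The other 16 genes were not called. AT5G40510, an unknown protein, passed the FDR at a difference of -0.95 (SE 0.19, adjusted p = 0.000272) but not the 2-fold limit, and so did AT4G14610, a pseudogene of the disease resistance class, at -0.98, BPC2, a basic pentacysteine transcription factor, at -0.66, AT4G14980, annotated to signalling, at -0.61 and LARP6a, an RNA-binding protein, at -0.58. AT4G22640, an unknown protein, was 2-fold lower at -1.09 without passing the FDR (adjusted p = 0.0783), with 7.82, 8.53 and 5.80 in rhd6 + MS. Its replicate 3 array stood far below the others.

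CYP706A7, a cytochrome P450, missed both limits at -0.70 (95% interval -1.27 to -0.14). For all others but AT5G15950 the interval included 0. It ran from -1.29 to 0.54 for AT2G18690, an unknown protein, and from -1.27 to 0.73 for AT4G16190, a cysteine proteinase, both wide enough for a 2-fold loss, from -0.84 to 0.38 for AT3G15760, also unknown, and from -0.67 to 0.31 for AT2G02630, a DC1 domain protein.

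AT2G01090, a hinge protein of mitochondrial complex III, had 10.62, 10.41 and 10.25 in rhd6 + MS, against 9.66, 10.27 and 10.87 as the lowest, median and highest downstream array. Its difference of 0.16 had a 95% interval of -0.24 to 0.56, so that a 2-fold loss lay outside it. For AT4G20480, an unknown protein, the interval was -0.24 to 0.67, and for AT4G15390, of a transferase family, -0.18 to 0.85. Both of these too left out a 2-fold loss.

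AT5G15950, an S-adenosylmethionine decarboxylase of spermidine and spermine synthesis, had its values at 7.62, 7.50 and 8.05 in rhd6 + MS, against 6.0, 7.03 and 8.10 downstream. The difference was 0.75 (SE 0.26, adjusted p = 0.031), past the FDR but under 2-fold, and none of the 4 S-adenosylmethionine decarboxylases was called. AT5G15948 shares every one of these values. EXPA8, an alpha-expansin by its name, a class of proteins that loosen cell walls, could not be placed, since its interval was -1.02 to 1.01.

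**Figure D3:**
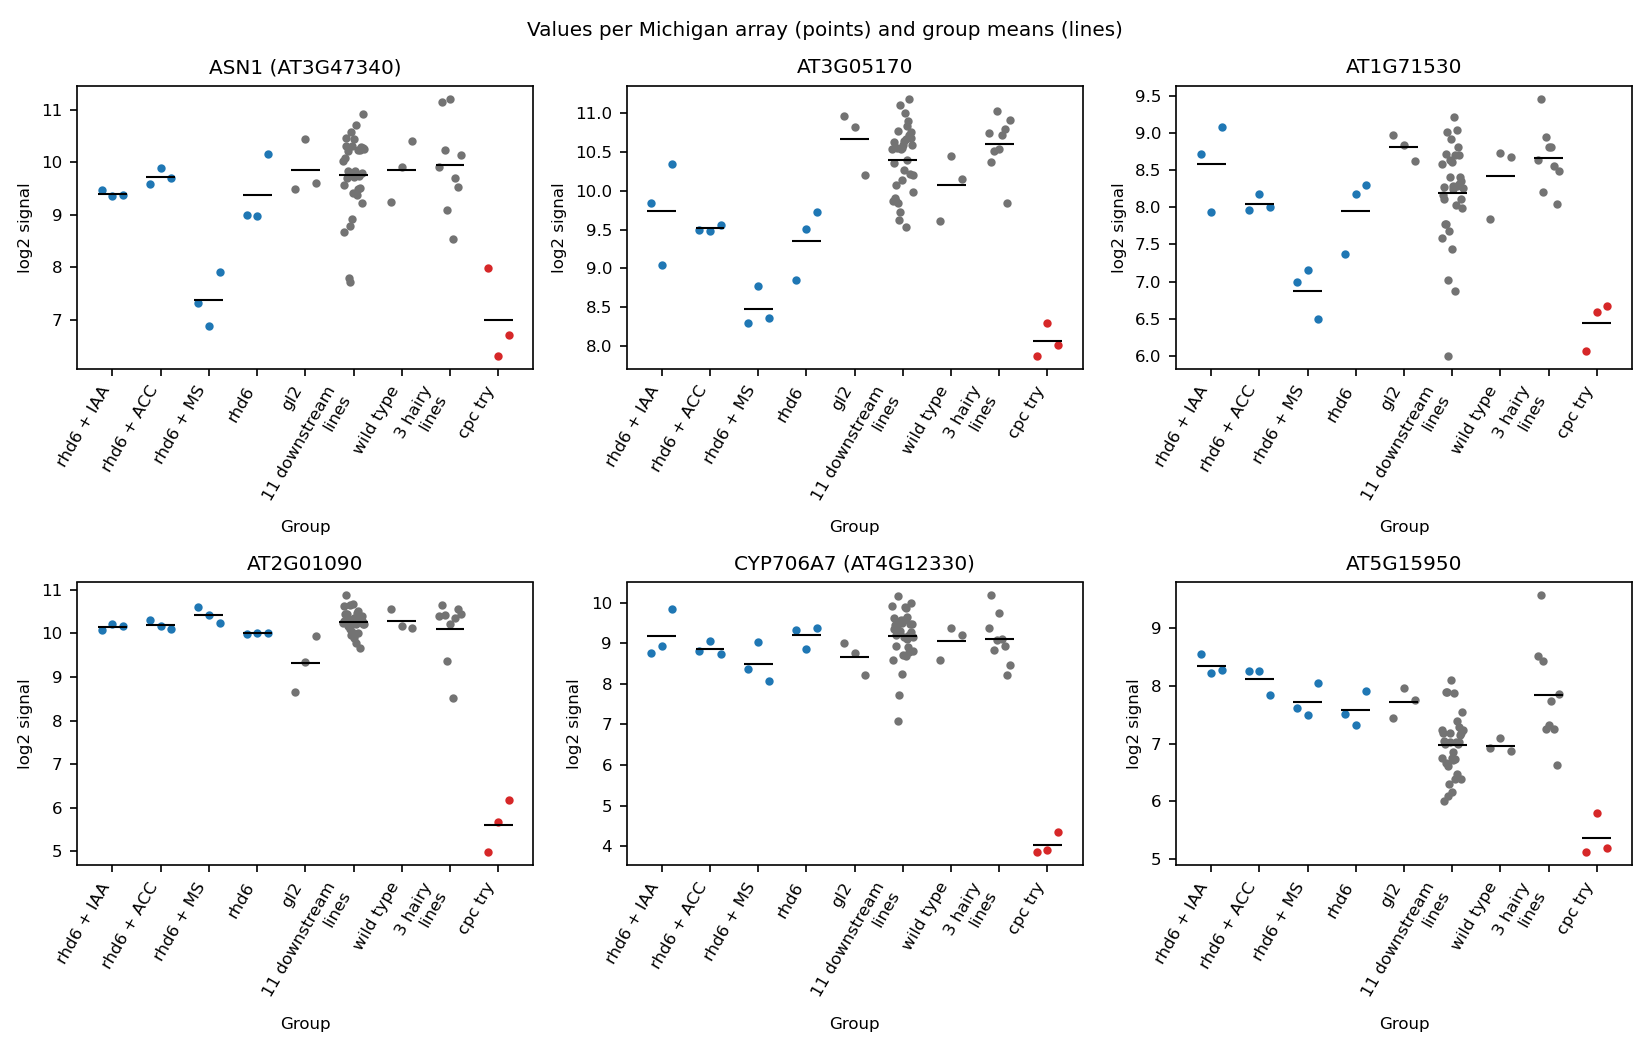
Each point is the log2 value of 1 array for 6 of the retained genes, with groups side by side (rhd6 groups blue, cpc try red, the rest grey) and a line at each group mean. The rhd6 + MS points of ASN1 and AT3G05170 lie low, those of AT2G01090 lie with the downstream lines, and cpc try is low for every gene shown.

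Set against the 3 gl2 arrays in place of the downstream lines, 9 of the 27 genes were lower in rhd6 + MS (3.51% of all genes) and 3 were higher (2.32%). The 3 that were higher were AT4G20480 by 1.03 (SE 0.30, adjusted p = 0.0269), AT2G01090 by 1.11 (SE 0.27, adjusted p = 0.00573) and AT4G15390 by 1.21 (SE 0.35, adjusted p = 0.0211). As a description, these genes in the same order lay at 0.14, 0.15 and 0.27 from wild type in rhd6 + MS. In gl2 they lay at -0.89, -0.96 and -0.95 from wild type. In this contrast 1 of 5 non-hair markers was also higher and 2 of 3 lateral root cap markers were lower in rhd6 + MS, and their part in the result was not tested.

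The hormone arrays asked whether auxin or ethylene changes the genes in an rhd6 root. Hormone contrasts were called at 2-fold and an FDR of 0.5%, and both share the 3 rhd6 + MS arrays. With IAA 0 of 27 genes were called higher, where 0.135% of all genes and 21 of the 116 RHD6-dependent genes were. With ACC 1 of 27 was higher, where 0.34% of all genes and 46 of the 116 were. None was lower in either (0% and 0.00466% of all genes). At an unadjusted p under 0.05 in limma's test, 10 of 27 genes were higher with IAA and 0 lower, where 11.1% of all genes were higher and 15.4% lower. With ACC 7 of 27 were higher and 1 lower, where 5.41% and 2.85% of all genes were. For a difference between 2 groups of 3 arrays the 95% interval reached 0.79 to either side in the median gene, which limits what these arrays can show.

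ASN1 was the gene called with ACC. Its values were 9.59, 9.89 and 9.71 in rhd6 + ACC, against 7.32, 6.88 and 7.90 in rhd6 + MS, a difference of 2.36 (SE 0.48, adjusted p = 0.00357). In rhd6 + IAA it read 9.48, 9.36 and 9.37, which is 2.04 above rhd6 + MS (SE 0.48, adjusted p = 0.0211) and short of the 0.5% FDR. All 6 hormone arrays lay above all 3 rhd6 + MS arrays and within the range of untransferred rhd6, which was 8.98 to 10.17. Over 13 alternatives the adjusted p of the ACC difference ran from 0.000536 to 0.0439, so that the call was lost in 9 of them while the difference kept its sign in all. Neither of the other 2 asparagine synthetases was called with ACC.

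At an FDR of 5% and 2-fold, 4 of 27 genes were higher with IAA (1.36% of all genes) and 1 with ACC (0.737%), against 70 and 72 of the 116 RHD6-dependent genes. The 4 with IAA were ASN1, AT3G05170, AT1G71530 and AT4G22640. AT3G05170 read 9.85, 9.04 and 10.35 in rhd6 + IAA and 9.50, 9.48 and 9.57 in rhd6 + ACC, all above the 8.30, 8.78 and 8.36 of rhd6 + MS. The IAA difference was 1.27 (SE 0.30, adjusted p = 0.0211) and the ACC difference 1.04 (adjusted p = 0.107).

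For AT1G71530 the values were 8.72, 7.93 and 9.08 in rhd6 + IAA and 7.97, 8.18 and 8.0 in rhd6 + ACC, against 6.99, 7.15 and 6.50 in rhd6 + MS. Its IAA difference was 1.69 (SE 0.39, adjusted p = 0.0187). AT4G22640 was at 10.04, 8.71 and 10.22 in rhd6 + IAA, against 7.82, 8.53 and 5.80 in rhd6 + MS, a difference of 2.27 (SE 0.61, adjusted p = 0.0412) that includes the low array of replicate 3. The groups of these genes did not overlap.

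Over the set the hormone differences leaned upward. The median was 0.71 with IAA and 0.44 with ACC, with 23 and 21 of 27 genes above 0 (50.8% and 44.9% of all genes). The medians were 0.01 and -0.04 over all genes and 1.77 and 2.19 over the RHD6-dependent genes. The 3 arrays did not overlap, with the hormone higher, in 14 of 27 genes for IAA (15.3% of all genes) and 10 for ACC (13.7%), and with the hormone lower in 2 genes for each (16.6% and 18.9%). The means of all 3 lateral root cap markers were higher with IAA. With ACC the markers BRN1 and BRN2 were higher and SMB was lower (8.57 against 8.68 in rhd6 + MS). The sum of the 3 was 11.58 to 12.19 in rhd6 + IAA and 11.14 to 11.95 in rhd6 + ACC. In rhd6 + MS it was 10.53 to 11.39, which overlapped with the ACC range. The median difference of these markers was 0.91 with IAA and 0.50 with ACC, none of them called. Of the 10 hair markers, all of them RHD6-dependent genes, 5 were called higher with IAA and 8 with ACC. The part of either list in these differences was not tested. AT2G18690 was at 9.33, 8.0 and 8.73 in rhd6 + IAA and 9.24, 8.91 and 8.81 in rhd6 + ACC, against 7.73, 7.74 and 6.13 in rhd6 + MS. Its differences of 1.49 and 1.79 did not pass the FDR (adjusted p = 0.117 and 0.282).

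Genes near or below 0 with both hormones were few. They included AT2G01090 at -0.27 with IAA and -0.23 with ACC, AT2G02630 at -0.22 and -0.70, AT4G20480 at -0.22 and -0.35, and AT4G14980 at -0.19 and -0.38. None of these differences passed the FDR. AT1G16260, lower than the downstream lines in rhd6 + MS, stayed at 4.44, 4.43 and 5.29 with IAA and 4.14, 4.64 and 4.06 with ACC, which overlapped with its 5.00, 4.66 and 4.42 in rhd6 + MS.

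Between the hormones themselves 0 of 27 genes differed at an FDR of 0.5% (3 of all genes were lower with IAA than with ACC, 0.014%), and 0 did so at an unadjusted p under 0.05, where 3.55% of all genes did. IAA minus ACC was -0.33 for ASN1, with a 95% interval of -1.29 to 0.64. It was 0.82 for AT4G22640 (-0.42 to 2.06) and 1.01 for EXPA8 (-0.37 to 2.38). Each of these intervals reaches past 2-fold in a single direction, so that these arrays do not show that the hormones act alike on these genes.

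**Figure D4:**
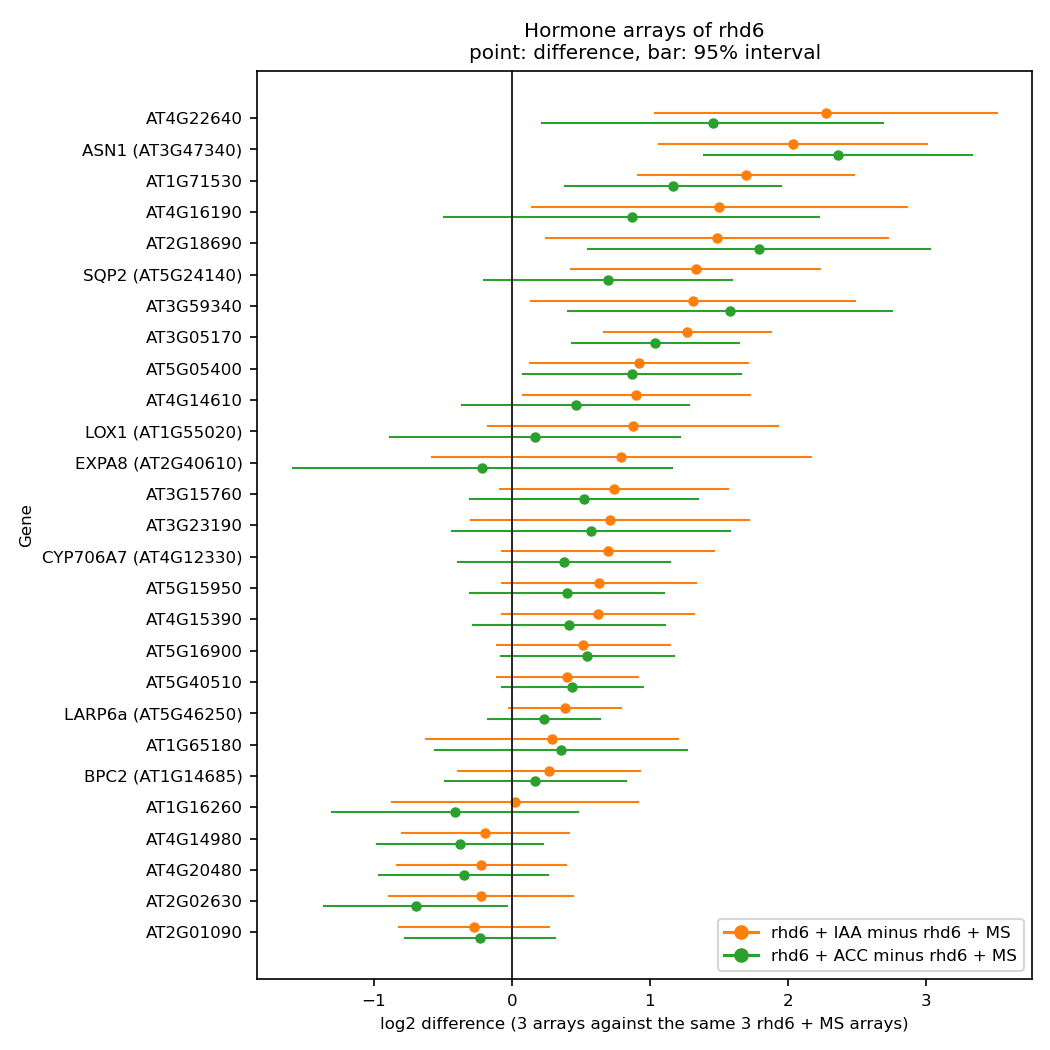
For each gene the upper point is rhd6 + IAA minus rhd6 + MS and the lower point rhd6 + ACC minus rhd6 + MS, in log2 units, with 95% intervals. ASN1 and AT4G22640 lie highest, at 2.04 and 2.27 with IAA, and the last 4 rows lie below 0 with both.

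Each downstream line was then compared with the mean of the other downstream lines, and gl2 with the mean of all 11, at 2-fold and an FDR of 5%. Of the 27 genes, 11 were lower in csld3 and 0 higher (2.19% and 1.16% of all genes), 2 were lower in mrh3 and 0 higher (1.02% and 1.7%), and none was called in the other 9 lines (0.084% of all genes higher and 0.056% lower in any of them) or in gl2 (0.816% and 0.746%). CSLD3 encodes a cellulose synthase-like protein of the growing hair tip and MRH3 an inositol phosphatase. Of the RHD6-dependent genes 32 of 116 were lower in csld3. The median csld3 difference was -0.84 for the retained genes and -0.83 for the RHD6-dependent genes, against 0.03 over all genes.

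LOX1 had the largest csld3 difference. Its values were 4.93, 6.29 and 6.02 in csld3, against 6.90, 8.74 and 9.86 as the lowest, median and highest of the 30 arrays of the other 10 lines, and the groups did not overlap. The difference was -2.73 (SE 0.39, adjusted p = 3.57e-06). These csld3 values lay also within or below the 5.64, 6.48 and 5.93 of cpc try.

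AT4G16190 was at 5.92, 6.32 and 8.84 in csld3, with a lowest of 7.15, a median of 9.50 and a highest of 10.57 in the other lines. Replicates 1 and 2 of csld3 lay below that range and replicate 3 within it, and the difference was -2.32 (SE 0.50, adjusted p = 0.00264). AT3G15760 read 5.62, 5.53 and 6.68 in csld3, below all other arrays, whose lowest was 7.22 and median 8.0 (difference -2.16, SE 0.31, adjusted p = 3.31e-06). EXPA8 had 4.39, 4.75 and 5.95 in csld3, against 4.89, 6.95 and 9.02, with overlap (difference -1.91, SE 0.51, adjusted p = 0.0142).

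Like them, AT2G18690 was low in replicates 1 and 2 of csld3 and higher in replicate 3, at 5.09, 5.14 and 7.37, against 5.40, 7.74 and 9.44 in the other lines (difference -1.87, SE 0.46). ASN1 read 7.79, 7.73 and 8.78 in csld3, against 8.68, 9.93 and 10.93 (difference -1.83, SE 0.36, adjusted p = 0.00083). CYP706A7 was at 7.08, 7.72 and 9.31, against 8.24, 9.36 and 10.16 (difference -1.27, SE 0.28). For ASN1 only replicate 3 of csld3 reached into the range of the others.

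The other 4 genes called in csld3 were AT3G59340 at -1.65, AT1G71530 at -1.42, SQP2 at -1.41 and AT5G05400 at -1.06. Together with LOX1 and ASN1 these make 6 genes that were lower both in csld3, 6 of its 11, and in rhd6 + MS, 6 of its 11. The 2 contrasts share downstream arrays. The share of all genes lower in both was not computed, so the 6 cannot be read as more than the 2 counts give by themselves. The median level of the hair markers also lay lower in csld3 than in wild type (9.57 against 10.75), and its part in these results was not tested. Without csld3 replicate 1 the calls over all lines came to 5, with LOX1, AT3G15760 and ASN1 the genes still called in csld3. By its label, replicate 3 of csld3 belongs to another array series (x) than replicates 1 and 2 (numbered).

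In mrh3, AT4G20480 had 8.30, 6.58 and 8.85, against 7.80, 9.31 and 9.75 as the lowest, median and highest of the 30 arrays of the other 10 lines. Its difference of -1.39 (SE 0.23, adjusted p = 3.12e-05) was -0.73 without mrh3 replicate 2, which ended the call. AT2G02630 was at 6.10, 6.38 and 5.49 in mrh3, below all arrays of the other lines, whose lowest was 6.52 (difference -1.34, SE 0.24, adjusted p = 0.000255). Neither gene was among those lower in csld3 or in rhd6 + MS.

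**Figure D5:**
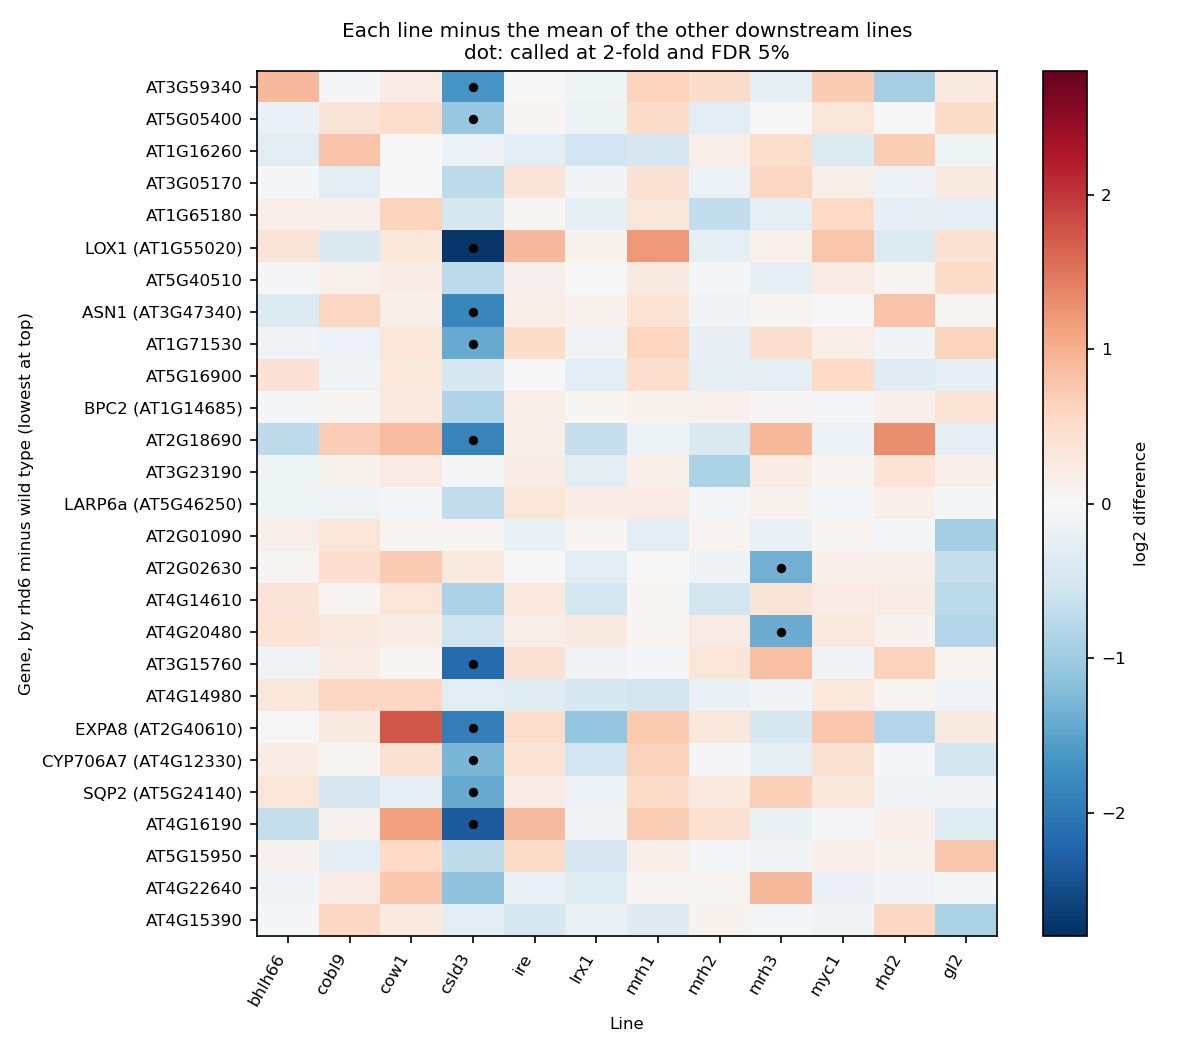
Colour gives each line minus the mean of the other downstream lines (gl2 minus the mean of all 11) in log2 units, for the 27 genes in rows, and dots mark calls. The csld3 column holds 11 dots, mrh3 holds 2, and no other column has any.

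Differences over 2-fold that did not pass the FDR went both ways, with 4 above and 2 below the other lines. EXPA8 was at -1.08 in lrx1 (SE 0.51, adjusted p = 0.985) and AT4G22640 at -1.14 in csld3 (SE 0.46, adjusted p = 0.103). In the other direction EXPA8 was 1.74 above the other lines in cow1 (SE 0.51, adjusted p = 0.213), AT2G18690 was 1.31 above in rhd2 (SE 0.46, adjusted p = 1), LOX1 was 1.22 above in mrh1 (SE 0.39, adjusted p = 0.564) and AT4G16190 was 1.14 above in cow1 (SE 0.50, adjusted p = 0.303). COW1 is a phosphatidylinositol transfer protein, RHD2 an NADPH oxidase and MRH1 a receptor-like kinase. In gl2, AT2G01090 was at -0.95 (SE 0.20, adjusted p = 0.00292), AT4G15390 at -0.88 and AT4G20480 at -0.82, all past the FDR but under 2-fold.

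The level in cpc try set some of the genes apart. For 11 of 27 all 60 other Michigan arrays lay above all 3 cpc try arrays, as they did for 35 of the 116 RHD6-dependent genes and 0.564% of all genes. Of the 60 arrays 15 took part in the rule, and so did the 3 cpc try arrays, so this is a description. The rule asked for low cpc try values, which by itself raises this count and those below over the share of all genes. AT2G01090 was at 4.97, 5.67 and 6.18 in cpc try while its lowest other array was 8.53. CYP706A7 was at 3.84, 3.90 and 4.35, with a lowest other array of 7.08. AT4G15390 was at 5.00, 4.36 and 4.23, with a lowest other array of 6.31.

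The other 8 were AT1G65180, AT2G02630, AT4G14610, AT4G14980, AT4G16190, AT4G22640, AT5G15950 and AT5G16900. All 6 arrays of rhd6 and rhd6 + MS lay above the cpc try arrays for 18 of 27 retained genes (4% of all genes). The cpc try arrays and 3 of the 6 had chosen the set. At Duke the 9 hairy arrays lay above the 3 cpc try arrays for 20 of 27 (2.52% of all genes), and the rule used all of these arrays. For 9 of 27 the 60 Michigan arrays and the 9 Duke arrays both lay above cpc try (0.322% of all genes). Of the 11 genes lower in rhd6 + MS than in the downstream lines, 2 were among these 11, AT1G65180 and AT5G16900. As cpc try was the only hairless line of the 6 differences, the hair fate and that line cannot be told apart for these genes.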

How the data were processed

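Values were the log2 signals the authors deposited, made by RMA with quantile normalization from ATH1 arrays, with custom probe sets of 1 per gene. How the facilities were divided for normalization is not given in the sources used here. The 64 control probe sets were dropped, which left 21440 genes, and no value was rescaled. Limma 3.58.1 in R 4.3.3 was fitted to the 63 Michigan arrays with 1 mean for each of 21 groups, with Benjamini-Hochberg adjustment across the whole gene table. Calls needed 2-fold and an FDR of 0.5% for hormones, or 5% for mutant lines. The fit was tested on simulated data. Duke arrays entered only the rule. Replicates are 3 biological samples per group as labelled, and the number of arrays limits the precision. The median SD of the retained genes within a Michigan group was 0.39 log2 units.

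The genes and all lists were chosen with earlier results of these data known. Any retained gene could be named, with values per array for those called in a contrast, at either end of rhd6 minus wild type, or with a known enzyme, kinase or transcription factor role. Roles came from the study's annotation and symbols from RefSeq (TAIR10.1), which held 27 of the 28 genes. Alternatives were another rule limit, the replicate number as a block, smaller fits, a filter on the dimmest 25%, a median shift, quantile normalization, array series as a factor, other thresholds, gl2 as the line compared with, and leaving out each array. A fit of only the arrays the rule did not use was added after seeing the data. No protein, promoter or probe sequence was used here.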

Additional observations from a re-analysis of the deposited data

How the results depend on the processing

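The limit of 3 arrays per group bears on every count. Under differences of at least 1.5 the rule kept 16 genes and under at least 0.8 it kept 45, against 28. Leaving out 1 array of the rule gave 26 to 34. With ACC 0 genes were called higher in a fit of the 9 hormone arrays, in that fit with the replicate block and after a median shift. At 2-fold alone, without the FDR, 8 genes were past the limit with IAA (5.21% of all genes), 6 with ACC (3.13%) and 1 with IAA over ACC (0.625%), and 4 values were higher in downstream lines or gl2 (0.974% of all values). At an FDR of 5%, 4 were called higher with IAA. With gl2 in place of the downstream lines 3 genes were higher in rhd6 + MS. Leaving out 1 array gave 0 to 2 genes higher with IAA (2 without rhd6 + IAA replicate 2), 0 to 0 with ACC, 7 to 12 lower in rhd6 + MS, 5 to 14 lower calls in downstream lines and 0 to 1 higher. The replicate number did not pair the arrays (correlation of same-numbered deviations from -0.40 to 0.30, of other numbers from -0.33 to 0.42), and as a block in the fit of all Michigan arrays it left 1 gene higher with ACC, 11 lower in rhd6 + MS and 13 lower calls in downstream lines. Without csld3 and mrh3, 13 genes were lower in rhd6 + MS. Among single genes 964 of the recomputed calls stayed as they were, 29 were lost and none changed direction. Of the 29, 26 came from leaving out 1 array and the other 3 were ASN1 with ACC. Most of the 964 came from fits that left out 1 array of a reference mean over many lines, which can move a call little. Without csld3 replicate 1 alone 8 calls were lost. The call of ASN1 with ACC was lost in all 6 fits that left out 1 of its arrays. The causes were not tested.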

Other observations

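Chromosomes 1 to 5 held 5, 4, 5, 7 and 6 of the 27 retained genes, and 25.8%, 16.3%, 19.9%, 14.8% and 22.9% of the measured genes. Of the RHD6-dependent genes 19.8% lay on chromosome 4. Of the 11 genes for which all other Michigan arrays lay above cpc try, 9 had another of the 11 within 200 measured genes, and of the other 16 retained genes 2 had another of the 16 as near. Among the RHD6-dependent genes the same held for 16 of 35 and 61 of 81. A larger set has more near neighbours by its size alone, so these counts cannot be compared between sets. No share for other genes was computed. The stretch from CYP706A7 (AT4G12330) to AT4G16190 covered 334 measured genes, 5 of them retained, and all 60 other arrays lay above cpc try for 12 of them (3.59%). From AT2G01090 to AT2G02630 it was 4 of 132 (3.03%), 2 of them retained, and from AT5G15950 to AT5G16900 it was 2 of 82 (2.44%), both retained. Over all genes the share was 0.564%. Each stretch was set to begin and end at 1 of the 11 genes, which by itself raises its share. From AT5G15950 to AT5G16900 the 2 end genes were the only such genes. The stretches were also chosen after the values were seen. No test was made, and their shares cannot be read against that of all genes.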
